A study of Homo sapiens with 12 samples.

Results

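Homeobox genes encode transcription factors that bind DNA through a homeodomain, and the 56 described here are those outside the HOX, sine oculis-type and PAX families on a list of symbols, each looked up in the authors' gene table. All 56 were found among its 28813 rows. They were sorted by class into 10 LIM, 8 DLX/MSX, 5 NKX, 13 other Antennapedia-like (ANTP), 6 Iroquois (IRX), 7 paired-like (PRD), 3 CUT (ONECUT), 2 POU and 2 MEIS genes. The IRX and MEIS genes, kept apart here, both belong to the TALE class.

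The values come from MKL-1, a cell line established from a Merkel cell carcinoma and positive for Merkel cell polyomavirus, grown in medium with serum. EPZ011989, an inhibitor of the histone methyltransferase EZH2, was given at 3 µM for 6 or 12 days. Vehicle cells were kept for the same 6 or 12 days, and all 4 groups contained ethanol at 1%. Each group has 3 libraries of polyA-captured RNA, 12 in all, from medium renewed every 3 days. Nothing in the labels tells whether the 3 were separate cultures, so every p-value measures only how these libraries vary, which may be technical. The RNA is from bulk cells, in which fewer expressing cells and less RNA per cell cannot be told apart.

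EZH2 provides the enzymatic activity of Polycomb repressive complex 2, which places the repressive H3K27me3 mark at CpG-rich promoters of silent developmental genes, homeobox genes prominent among them. LIM homeodomain proteins carry an additional pair of zinc-binding LIM domains for cofactors, and POU and CUT proteins a separate DNA-binding domain. TALE proteins have an extended loop in the homeodomain, and MEIS factors join PBX and HOX proteins on DNA. In embryos these genes set regional and cell identity, with IRX, EMX, GBX, EN, OTX, NKX and POU3F genes known from the nervous system and DLX and MSX genes from the face, limb and ectoderm.

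The 12 libraries held 15994997 to 20866370 estimated reads. A gene was tested if it reached about 0.528 CPM in at least 3 libraries, which 15016 genes did. CPM is a read count relative to library size, taken as the plain library total in this filter and as the TMM-scaled size elsewhere. Replicate 1 of vehicle at day 12 stood apart on the third principal component (43.1, against 13.6 and -5.3 for its group), and a result that rests on it is also given without it. All 12 Merkel cell carcinoma markers looked up were tested. Together they held 2744 to 2783 TPM (a length-corrected transcript level) with EPZ011989 and 3088 to 3103 TPM in vehicle at day 6, and 3001 to 3066 TPM with EPZ011989 and 2925 to 3106 TPM in vehicle at day 12. Of the 12, 1 rose and 8 fell at day 6, and 3 rose and 6 fell at day 12. Over all tested genes 17.1% rose and 17.1% fell at day 6, and 33.7% rose and 33.3% fell at day 12. Marker sums for other cell types were low: 7.94 to 35.9 TPM for 6 fibroblast genes, 1.13 to 23.6 TPM for 6 leukocyte genes, 0.436 to 1.17 TPM for 5 endothelial genes and 10.2 to 24.1 TPM for 7 keratinocyte genes. The fibroblast sum was mostly DCN, the leukocyte sum mostly CD79B and the keratinocyte sum mostly KRT10, while KRT1 and IVL had no read. The fibroblast sum was higher with EPZ011989 (27.2 to 35.9 and 23.3 to 26.2 TPM at days 6 and 12) than in vehicle (15.4 to 18.3 and 7.94 to 22.6 TPM), with DCN called up at both days and COL1A1 at day 12. The leukocyte sum was lower with EPZ011989 (3.71 to 4.57 and 1.13 to 2.29 TPM at days 6 and 12) than in vehicle (17.3 to 23.6 and 5.34 to 11.7 TPM), and the part of either in the results was not tested. EZH2 mRNA fell by 0.18 on the log2 scale at day 6 and by 1.54 at day 12 (edgeR adjusted p = 0.011 and 2.45e-12), but the inhibitor acts on the enzyme and not on its transcript, so mRNA does not check the treatment.

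RefSeq promoters (build GRCh38.p14, 250 bases before to 50 after a start, on the gene's strand) were matched to 41 of the 56 genes. The 52 promoters of these genes held a median of 24 CpG dinucleotides in 300 bases, against 14 over all 35116 promoters, and 71.2% of them held at least 20, against 41.2%. The promoters of 6 members that the comparisons turn on are shown with each CpG in capitals, written 5′ to 3′. BARHL1 (chr9:132582356-132582655, plus strand), NKX2-2 (chr20:21512911-21513210, minus strand) and POU3F3 (chr2:104853865-104854164, plus strand) had little or no RNA in vehicle and the largest rises at day 12. GBX2 (chr2:236168337-236168636, minus strand) rose mainly at day 12, LHX2 (chr9:124011518-124011817, plus strand) fell at day 12, and IRX2 (chr5:2751628-2751927, minus strand) was the most abundant member.
BARHL1: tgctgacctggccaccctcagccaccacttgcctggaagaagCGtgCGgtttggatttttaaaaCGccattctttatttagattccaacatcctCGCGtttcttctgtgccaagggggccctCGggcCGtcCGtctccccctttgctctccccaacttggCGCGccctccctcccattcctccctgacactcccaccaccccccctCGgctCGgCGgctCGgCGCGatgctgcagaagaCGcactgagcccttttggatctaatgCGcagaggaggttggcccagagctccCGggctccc
NKX2-2: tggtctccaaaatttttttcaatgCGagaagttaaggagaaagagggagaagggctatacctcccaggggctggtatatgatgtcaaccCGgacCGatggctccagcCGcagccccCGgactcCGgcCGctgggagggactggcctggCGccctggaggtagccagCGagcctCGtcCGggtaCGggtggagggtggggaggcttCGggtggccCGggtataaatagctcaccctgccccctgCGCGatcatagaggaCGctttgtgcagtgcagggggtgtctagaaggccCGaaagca
POU3F3: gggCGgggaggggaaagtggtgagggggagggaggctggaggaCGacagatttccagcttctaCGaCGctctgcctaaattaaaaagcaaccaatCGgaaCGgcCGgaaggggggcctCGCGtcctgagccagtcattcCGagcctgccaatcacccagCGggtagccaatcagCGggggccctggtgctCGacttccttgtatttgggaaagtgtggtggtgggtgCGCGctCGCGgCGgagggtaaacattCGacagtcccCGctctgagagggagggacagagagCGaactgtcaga
GBX2: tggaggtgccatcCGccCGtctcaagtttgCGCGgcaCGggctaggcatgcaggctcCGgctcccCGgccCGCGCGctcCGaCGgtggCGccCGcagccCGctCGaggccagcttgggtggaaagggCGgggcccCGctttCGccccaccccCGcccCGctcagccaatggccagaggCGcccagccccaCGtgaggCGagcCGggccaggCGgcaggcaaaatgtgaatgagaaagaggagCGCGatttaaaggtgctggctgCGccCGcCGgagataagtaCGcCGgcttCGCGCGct
LHX2: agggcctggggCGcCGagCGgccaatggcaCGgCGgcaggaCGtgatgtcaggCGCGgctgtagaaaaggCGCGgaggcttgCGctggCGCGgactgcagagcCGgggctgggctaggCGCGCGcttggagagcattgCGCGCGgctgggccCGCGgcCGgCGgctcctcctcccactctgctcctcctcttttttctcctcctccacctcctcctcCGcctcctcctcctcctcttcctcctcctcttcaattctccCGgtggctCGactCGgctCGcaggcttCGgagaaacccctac
IRX2: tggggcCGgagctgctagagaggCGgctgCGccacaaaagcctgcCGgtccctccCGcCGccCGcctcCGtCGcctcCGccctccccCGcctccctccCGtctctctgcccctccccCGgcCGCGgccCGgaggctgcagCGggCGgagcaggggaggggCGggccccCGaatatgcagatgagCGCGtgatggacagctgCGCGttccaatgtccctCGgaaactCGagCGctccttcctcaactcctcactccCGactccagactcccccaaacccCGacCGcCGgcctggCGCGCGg
The 6 hold 19, 18, 21, 36, 30 and 34 CpG in the order shown. For NKX2-2 and POU3F3 the RefSeq start lies 1066 and 1396 bases from the start of the gene's main transcript in the annotation used for counting, and for the other 4 it lies 17 to 421 bases away. Among genes with a matched promoter, the 12 that rose at least 2-fold at day 12 had a median of 21 CpG, the 2 that fell (LHX2 and LHX4) 31, and the 12 that were not tested 26.5. The homeodomain core motif TAATTA, its own reverse complement, was in 3 of the 52 promoters (5.77%) and in 4.84% of all promoters. The motif TAATCC of bicoid-type factors such as OTX and PITX, sought on both strands, was in 2 (3.85%), against 6.36%.

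Most of these genes were weakly expressed or silent in vehicle cells. Over the 6 vehicle libraries 29 of the 56 averaged at least 1 TPM and 11 at least 10 TPM. Their median was 1.08 TPM, against 19.2 TPM over the tested genes. IRX2, an Iroquois factor, stood far above the rest at a mean of 243 TPM (233 to 255). SHOX2, a paired-related factor of limb and cardiac pacemaker development, followed at 60.9 TPM (55.7 to 65.8). The next 2, the sensory neuron factor TLX3 at 33.1 TPM (23.2 to 40.5) and the hindlimb factor PITX1 at 32.7 TPM (30.8 to 34.0), overlapped in their ranges. So did MEIS2 at 20.1 TPM (17.6 to 22.4) and LHX2, a LIM factor of eye and forebrain, at 18.6 TPM (17.2 to 19.8).

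**Figure D1:**
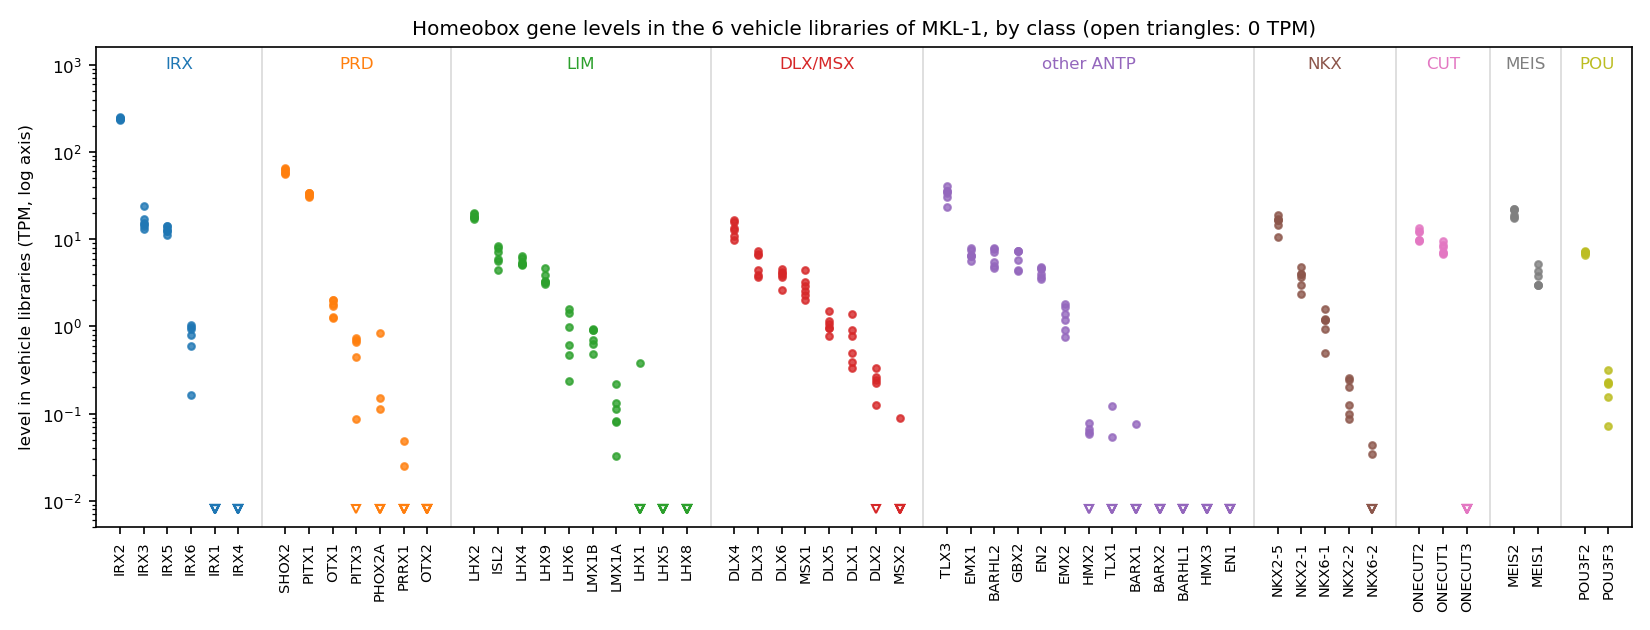
Level of each of the 56 homeobox genes in the 6 vehicle libraries, in TPM on a log axis, grouped by class; each point is a library and an open triangle marks a library at 0 TPM. IRX2 lies near 243 TPM, above all others, and every class except MEIS runs down to a gene under 1 TPM.

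Every class held both expressed and nearly silent genes, apart from the MEIS pair. The IRX class had the largest vehicle sum, 269 ± 5.48 TPM at day 6 and 277 ± 8.76 TPM at day 12 (SD, n = 3 each), nearly all of it IRX2. PRD genes summed to 92.1 ± 1.76 and 99.9 ± 1.92 TPM, other ANTP genes to 61.2 ± 3.47 and 54.7 ± 8.06 TPM, and LIM genes to 36.9 ± 1.5 and 35.2 ± 0.955 TPM. The 8 DLX/MSX genes summed to 30.9 ± 1.64 and 24.0 ± 2.09 TPM, and the other 4 classes each averaged under 25 TPM at both days.

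In all, 37 of the 56 genes were tested and 19 were not. BARHL1, DLX1, DLX2 and NKX2-2 reached the limit in fewer than 3 vehicle libraries, so they entered the test through their EPZ011989 libraries and a rise was built into their inclusion. The 19 untested genes had 0 to 61 summed reads over the 12 libraries. LHX8, HMX3, IRX1 and OTX2 had none, although the authors' table gives OTX2 4.65 in replicate 3 of vehicle at day 12 and 0 elsewhere. PITX3 had 61 reads, LHX1 58, IRX4 44, PHOX2A 27, LMX1A 24, BARX1 22, TLX1 18, ONECUT3 15 and HMX2 10, and NKX6-2, PRRX1, LHX5, BARX2, EN1 and MSX2 had 1 to 8. The reads of LHX1 cover only 0.21 of the authors' level for that gene, so its values are in part missing here.

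A few untested genes had reads mainly in EPZ011989 libraries, and they are given as reads with no test. IRX4, an Iroquois factor of the heart ventricle, had 7, 8 and 6 reads with EPZ011989 at day 6, 6, 2 and 15 at day 12, and none in any vehicle library. BARX1, a stomach and tooth factor, had 11, 6 and 4 reads with EPZ011989 at day 6, none with EPZ011989 at day 12 and 1 read in 1 of the 6 vehicle libraries. All 15 reads of ONECUT3 were in replicate 1 of EPZ011989 at day 12.

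The comparison of EPZ011989 with vehicle asked which of these genes change when EZH2 is inhibited. At day 6 most of those that changed rose: 21 of the 37 tested genes were higher and 4 lower with EPZ011989, and 12 did not pass the test (edgeR quasi-likelihood test, Benjamini-Hochberg adjusted p under 0.05). Over all tested genes 34.2% were called, 17.1% in each direction. At least 2-fold rises were found for 10 members and a fall of that size for 1, against 7.11% and 0.693% of all genes. The 10 include BARHL1, DLX1 and NKX2-2, which entered the test through their treated libraries. The members' median log2 fold change was 0.65, against -0.02 over all genes. Without the 4 genes that entered through treated libraries 18 of 33 rose, 4 fell and the median was 0.58. The 4 falls were the less stable part: with library totals in place of TMM 22 members rose and 1 fell, and without replicate 2 or replicate 3 of vehicle at day 6, 21 rose and 1 fell.

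At day 12, 20 of the 37 rose, 6 fell and 11 did not pass the test, where 66.9% of all genes were called, 33.7% upward and 33.3% downward. Rises of at least 2-fold were found for 14 members and falls for 4, against 16.4% and 9.09% of all genes. The 14 include BARHL1, DLX2 and NKX2-2, which entered the test through their treated libraries. The median was 0.58, against 0.02 over all genes, and without the 4 genes 17 of 33 rose, 6 fell and the median was 0.47. The share called at day 12, 26 of 37, was thus near that of all genes, with the direction mostly upward. The summed level of all 56 was 672 ± 1.38 TPM with EPZ011989, against 559 ± 3.31 TPM in vehicle, at day 6, and 793 ± 18.5 TPM with EPZ011989, against 564 ± 17.3 TPM in vehicle, at day 12 (SD, n = 3 each).

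**Figure D2:**
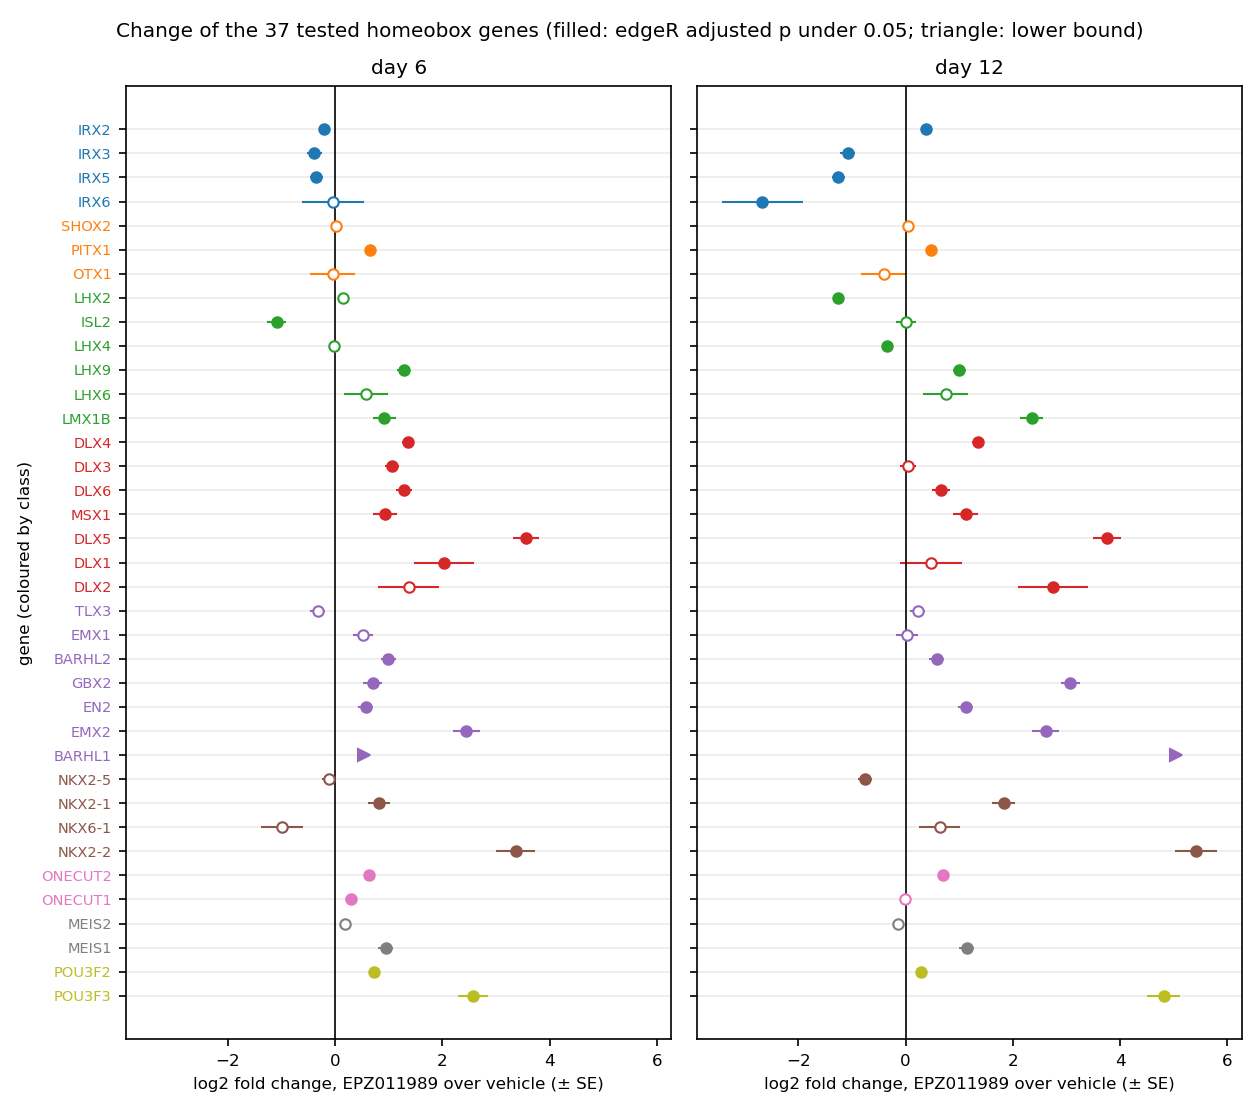
Log2 fold change of the 37 tested homeobox genes, EPZ011989 over vehicle, ± SE, at day 6 (left) and day 12 (right); filled symbols passed the edgeR test and the BARHL1 triangles are lower bounds. The DLX/MSX genes lie at or right of 0 at both days, IRX3 and IRX5 lie left of it, and IRX2 changes side.

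By direction, 18 genes rose at both days and IRX3 and IRX5 fell at both. The 18 include BARHL1 and NKX2-2, which entered through treated libraries, and the share of all genes called at both days was not computed. IRX2 fell at day 6 and rose at day 12. DLX1, DLX3 and ONECUT1 were called up at day 6 alone, DLX2 up at day 12 alone, ISL2 down at day 6 alone, and LHX2, LHX4, NKX2-5 and IRX6 down at day 12 alone. EMX1, LHX6, MEIS2, NKX6-1, OTX1, SHOX2 and TLX3 passed at neither day. The test of the difference between the day 12 and the day 6 effect found 10 members more positive at day 12 and 9 more negative, where 47.7% of all genes were called, 22.6% and 25.1% in these directions. At least 2-fold differences were found for 7 members upward and 3 downward, against 8.17% and 6.86% of all genes.

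DLX/MSX genes rose more often than they failed the test, and none fell. Apart from DLX1 and DLX2, which entered through their treated libraries, 5 of 5 tested rose at day 6 (median log2 fold change 1.29) and 4 of 5 at day 12 (1.12), where 17.1% and 33.7% of all genes rose. With that pair the counts were 6 of 7 and 5 of 7. Their summed level was 86.9 ± 3.84 TPM with EPZ011989, against 30.9 ± 1.64 TPM in vehicle, at day 6 and 65.3 ± 3.15 TPM with EPZ011989, against 24.0 ± 2.09 TPM in vehicle, at day 12. These genes act in craniofacial bone, tooth, skin and forebrain interneurons, and 6 of them stand as close pairs with starts 18.2 kb (DLX1 and DLX2, chromosome 2), 19.4 kb (DLX5 and DLX6, chromosome 7) and 26.3 kb apart (DLX3 and DLX4, chromosome 17).

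DLX5, a factor of the facial skeleton and inner ear (chromosome 7, 97020392 to 97024950), had 9.01, 9.04 and 12.2 CPM with EPZ011989 at day 6, against 0.773, 1.09 and 0.686 CPM in vehicle. At day 12 it had 10.8, 7.44 and 8.71 CPM with EPZ011989, against 0.772, 0.616 and 0.58 CPM in vehicle. Its treated libraries lay well above all vehicle libraries at both days, with log2 fold changes of 3.56 ± 0.25 and 3.76 ± 0.26 (edgeR adjusted p = 6.86e-08 and 9.45e-09). Its partner DLX6 had 13.6, 13.1 and 13.0 CPM with EPZ011989, against 5.96, 4.89 and 5.39 CPM in vehicle, at day 6. By day 12 the values were 7.06, 7.03 and 8.65 CPM with EPZ011989, against 3.99, 4.99 and 5.34 CPM in vehicle. DLX6 thus rose at both days without overlap, by 1.29 ± 0.15 and 0.66 ± 0.16 log2 (edgeR adjusted p = 1.54e-05 and 0.00169).

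DLX4, known from the placenta (chromosome 17, 49968970 to 49974959), was the most abundant of the class in vehicle. It had 35.7, 35.2 and 34.3 CPM with EPZ011989 at day 6, against 14.9, 13.6 and 12.6 CPM in vehicle, and 27.7, 29.4 and 22.8 CPM with EPZ011989, against 11.1, 9.30 and 11 CPM in vehicle, at day 12. The rise was alike at both days, 1.36 ± 0.11 and 1.35 ± 0.11 log2 (edgeR adjusted p = 2.76e-07 and 6.57e-08), with a difference of -0.01 ± 0.16 (95% interval -0.32 to 0.30). Its neighbour DLX3, a factor of hair, tooth and epidermis, did otherwise. It had 21.8, 23.1 and 21.3 CPM with EPZ011989 at day 6, against 10.7, 10.2 and 10.9 CPM in vehicle, a rise of 1.06 ± 0.13 log2 (edgeR adjusted p = 2.83e-05). The day 12 libraries had 4.40, 6.28 and 6.63 CPM with EPZ011989, against 5.40, 5.44 and 5.99 CPM in vehicle, and the groups overlapped (0.04 ± 0.15, edgeR adjusted p = 0.826). The difference between the days was -1.02 ± 0.20 log2 (edgeR adjusted p = 0.000702).

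DLX1 and DLX2, partners in forebrain interneurons, had few reads. DLX1 had 2.64, 1.28 and 2.94 CPM with EPZ011989 at day 6, against 0.442, 0.489 and 0.739 CPM in vehicle (2.03 ± 0.56 log2, edgeR adjusted p = 0.0123). At day 12 the libraries overlapped at 0.358, 0.955 and 1.57 CPM with EPZ011989, against 1.16, 0.448 and 0.451 CPM in vehicle. The day 6 call of DLX1 was lost without replicate 3 of EPZ011989 at day 6 (edgeR adjusted p = 0.0506) and under 3 other settings (p of 0.0943 to 0.118). At day 6 DLX2 was higher without overlap, on 52 reads with EPZ011989 against 21 in vehicle, but did not pass (1.37 ± 0.56 log2, edgeR adjusted p = 0.0742). It passed there without replicate 1 of vehicle at day 12 (edgeR adjusted p = 0.0367) and with the day 6 libraries alone (0.0346). DLX2 rose at day 12 by 2.75 ± 0.65 log2 on 57 reads with EPZ011989, against 7 in vehicle (edgeR adjusted p = 0.00174), and by 2.20 without replicate 1 and 3.41 without replicate 3 of vehicle at day 12. The difference between its days was not called (1.38 ± 0.87, edgeR adjusted p = 0.211). MSX1, a tooth and palate factor, rose by 0.93 ± 0.23 and 1.12 ± 0.23 log2 at days 6 and 12 (edgeR adjusted p = 0.0065 and 0.000554). MSX2 had 1 read in all.

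Genes near the DLX pairs did not all move with them. As neighbours, only genes annotated as protein-coding and outside the set were looked up, and the genes and counts below are these alone. Within 500 kb of DLX5 and DLX6 the tested genes were SEM1, at 0.10 ± 0.10 and -0.17 ± 0.11 log2 at days 6 and 12, and SDHAF3, at 0.01 ± 0.16 and -0.77 ± 0.16, of which only the last value passed (edgeR adjusted p = 0.000807). Within 500 kb of DLX3 and DLX4, 2 of 17 tested genes rose and 9 fell at day 6, and 6 rose and 9 fell at day 12. Near DLX1 and DLX2 the integrin gene ITGA6 rose by 2.25 ± 0.20 and 2.42 ± 0.20 log2, and of the 6 tested genes there 2 rose and 2 fell at day 12. Over all tested genes 17.1% rose and 17.1% fell at day 6, and 33.7% rose and 33.3% fell at day 12. The day 12 counts near DLX1 and DLX2 were thus near the shares of all genes.

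**Figure D3:**
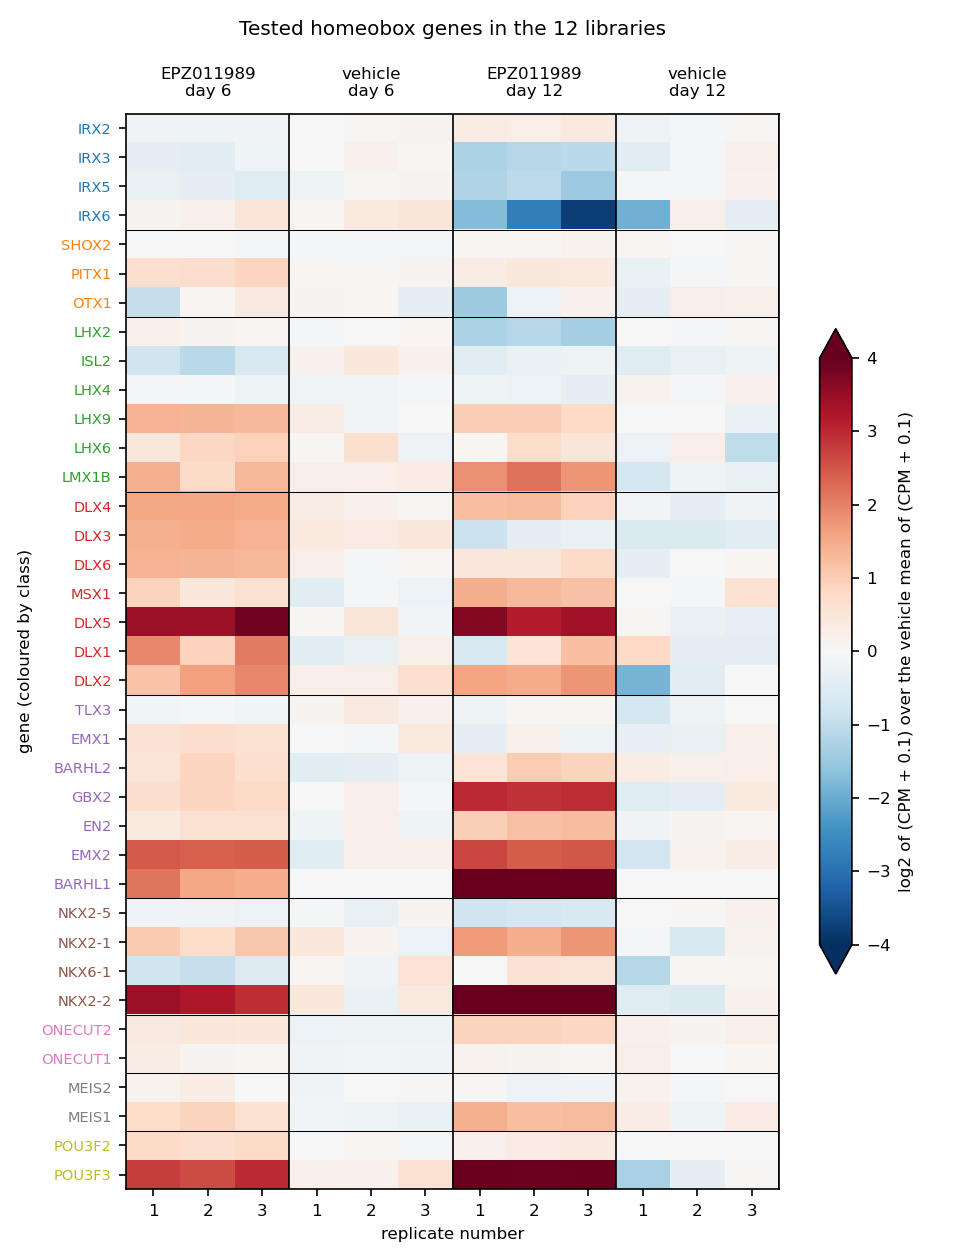
Level of the 37 tested homeobox genes in each of the 12 libraries as log2 of (CPM + 0.1) over the vehicle mean of (CPM + 0.1), with genes grouped by class and columns by group. The treated columns are red across the DLX/MSX rows at day 6 and darkest at BARHL1, NKX2-2 and POU3F3 at day 12, while LHX2, IRX3, IRX5 and IRX6 are blue in the day 12 treated columns.

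IRX genes mostly fell. Of the 4 tested, IRX2, IRX3 and IRX5 fell at day 6 and IRX6 did not pass, and at day 12 IRX3, IRX5 and IRX6 fell and IRX2 rose, with class medians of -0.28 and -1.17 log2. Falls were called for 17.1% of all genes at day 6 and 33.3% at day 12. Each of the 3 day 6 calls was lost in some settings. The class sum was 250 ± 3.36 TPM with EPZ011989, against 269 ± 5.48 TPM in vehicle, at day 6. At day 12 the sum was higher, at 343 ± 11.5 TPM with EPZ011989, against 277 ± 8.76 TPM in vehicle (SD, n = 3 each). Of the treated day 12 sum IRX2 made up 328 ± 9.45 TPM. Iroquois genes pattern the neural tube, heart and limb and lie in 2 clusters of 3. IRX3, IRX5 and IRX6 have starts 644 and 393 kb apart on chromosome 16. IRX4, IRX2 and IRX1 have starts 864 and 844 kb apart on chromosome 5, and of these only IRX2 was tested.

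IRX3 (chromosome 16, 54283304 to 54286763) had 10.2, 11 and 11.5 CPM with EPZ011989 at day 12, against 17.8, 22.9 and 28.2 CPM in vehicle. IRX5 (chromosome 16, 54930862 to 54934485) had 7.98, 8.84 and 6.63 CPM with EPZ011989, against 17.9, 17.4 and 20.7 CPM in vehicle. In both genes every treated library lay below every vehicle library, with changes of -1.08 ± 0.14 and -1.25 ± 0.13 log2 (edgeR adjusted p = 9.38e-06 and 7.37e-07). At day 6 the falls were smaller: IRX3 had 19.2, 18.0 and 21.8 CPM with EPZ011989, against 24.2, 27.4 and 25.9 CPM in vehicle (-0.39 ± 0.14 log2, edgeR adjusted p = 0.0375). IRX5 had 15.3, 14.4 and 13.2 CPM with EPZ011989, against 16.1, 18.9 and 19.9 CPM in vehicle (-0.35 ± 0.12 log2, edgeR adjusted p = 0.0397). Neither gene's groups overlapped at day 6, but both day 6 calls were fragile. That of IRX3 was lost in 6 of 12 fits without 1 library (adjusted p of 0.0567 to 0.148) and in 4 other settings (up to 0.625), and that of IRX5 in 7 of 12 (0.0505 to 0.182) and in 7 other settings (0.0548 to 0.224), among them the replicate block (0.0576).

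IRX6, the third gene of the cluster and known from the retina, had few reads. It had 0.307, 0.10 and 0 CPM with EPZ011989 at day 12 (8 reads), against 0.257, 1.51 and 0.966 CPM in vehicle (46 reads). The groups overlapped through replicate 1 of vehicle, the library that stood apart, while the fitted change was -2.67 ± 0.76 log2 (edgeR adjusted p = 0.00615). It passed in each fit without 1 library, at -3.95 without replicate 1 of EPZ011989 at day 12, -3.11 without replicate 1 of vehicle and -2.09 without replicate 2 of vehicle. At day 6 IRX6 had 1.56 ± 0.25 CPM with EPZ011989, against 1.60 ± 0.246 CPM in vehicle (SD, n = 3 each). The matrix protease gene MMP2 was the only tested protein-coding neighbour within 500 kb of this cluster. It was at 1.05 ± 0.43 and 0.84 ± 0.46 log2 at days 6 and 12 and passed at neither (edgeR adjusted p = 0.0713 and 0.118).

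IRX2 (chromosome 5, 2745845 to 2751662), with 19472 to 29643 reads per group the most of the set, changed little. It had 375, 379 and 373 CPM with EPZ011989 at day 6, against 418, 430 and 444 CPM in vehicle. After 12 days it had 511, 499 and 545 CPM with EPZ011989, against 358, 405 and 430 CPM in vehicle. All treated libraries were thus below vehicle at day 6 (-0.20 ± 0.06 log2, edgeR adjusted p = 0.0145) and above it at day 12 (0.38 ± 0.06 log2, edgeR adjusted p = 2.89e-05), with a difference of 0.58 ± 0.08 between the days (edgeR adjusted p = 3.47e-05). The day 6 call was lost without replicate 2 or replicate 3 of vehicle at day 6 (edgeR adjusted p = 0.0674 and 0.108) and with library totals in place of TMM (0.0531). IRX2-DT, read divergently beside IRX2, is listed as protein-coding in the annotation used for counting. It had 43.3 ± 1.70 CPM with EPZ011989 at day 12, against 21.4 ± 0.812 CPM in vehicle (SD, n = 3 each). The rise was 1.01 ± 0.08 log2 (edgeR adjusted p = 7.22e-08).

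**Figure D4:**
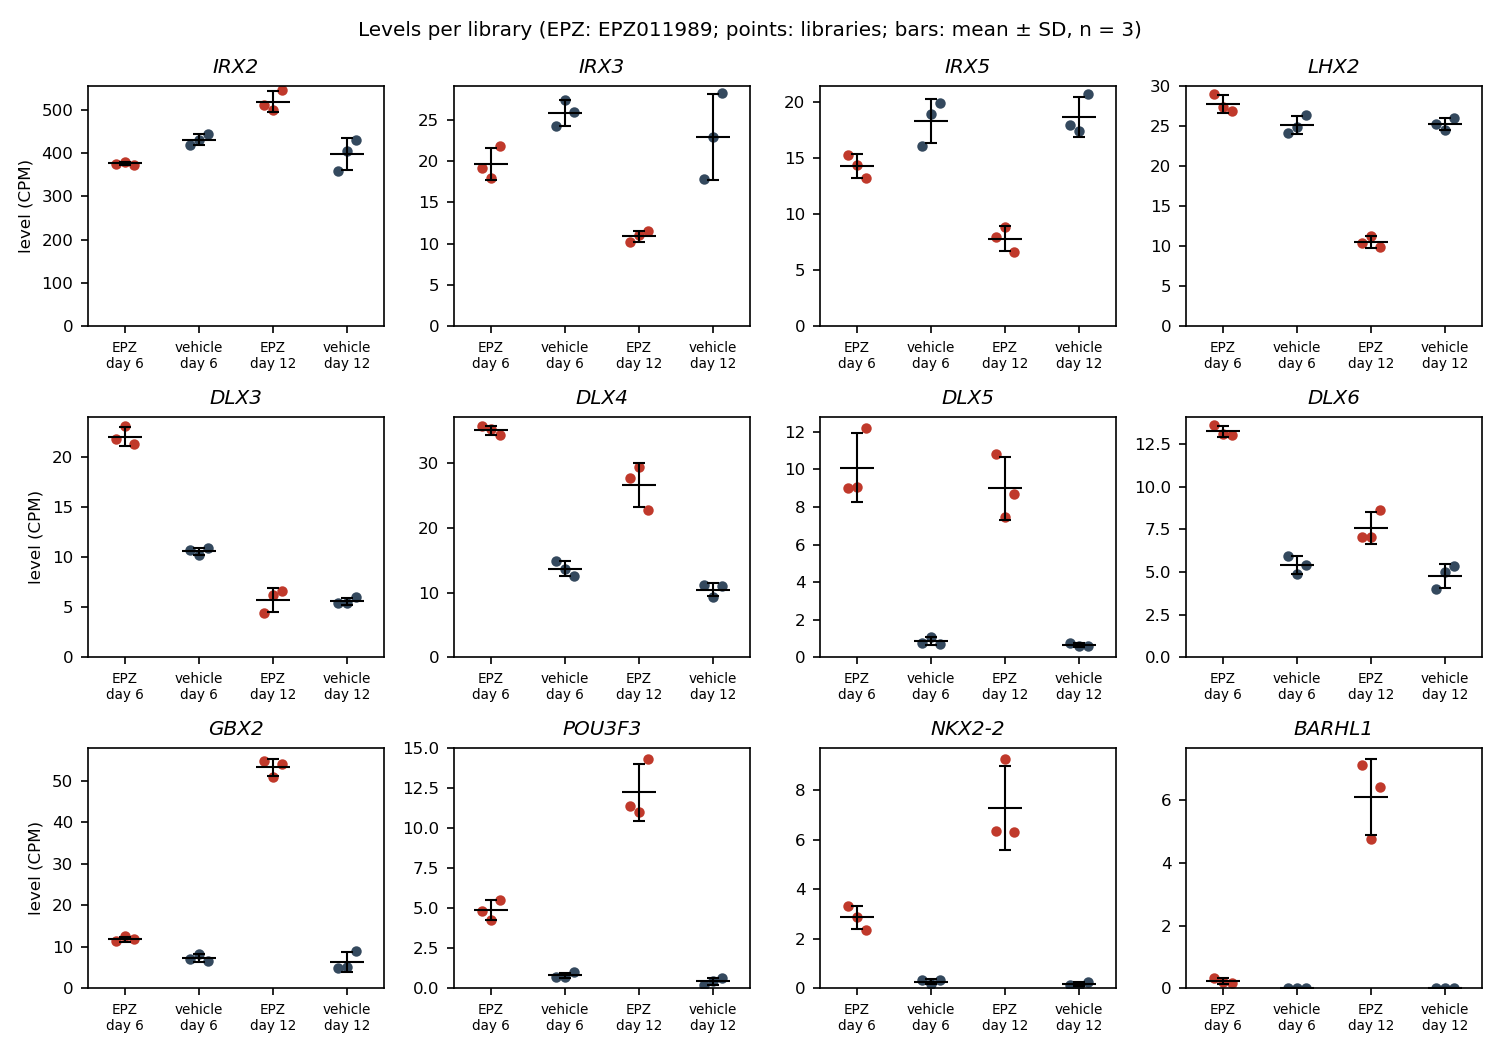
Level in CPM of 12 homeobox genes in each library (points) with the mean ± SD of 3 libraries, in EPZ011989 (red) and vehicle (dark) cells at days 6 and 12; each panel has its own axis starting at 0. IRX3, IRX5 and LHX2 are lowest with EPZ011989 at day 12, DLX3 is raised at day 6 alone, and GBX2, POU3F3, NKX2-2 and BARHL1 are highest with EPZ011989 at day 12.

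Among the 13 other ANTP genes 7 were tested, of which BARHL1 entered through its treated libraries. Of the other 6, 4 rose and none fell at each day, with medians of 0.64 and 0.85 log2, where 17.1% and 33.7% of all genes rose. BARHL1, a factor that in mice keeps inner ear hair cells and cerebellar granule cells alive (chromosome 9, 132582185 to 132590266), had no read in any vehicle library. With EPZ011989 it had 0.343, 0.192 and 0.173 CPM at day 6 (13 reads) and 7.11, 4.77 and 6.4 CPM at day 12 (348 reads). Against a floor of 3 reads per library it was at least 1.45-fold higher at day 6 and at least 33.0-fold higher at day 12 (edgeR adjusted p = 0.00317 and 6.13e-07). The day 6 call was lost with limma on the authors' table at a pseudocount of 5 (adjusted p = 0.0625). The edgeR test of its difference between the days gave an adjusted p of 1, with no read in any vehicle library, whereas the DESeq2 test and limma gave adjusted p-values of 5.2e-05 to 0.0284. Its paralogue BARHL2, of retinal and spinal neurons, was already expressed and had 11.5, 14.8 and 12.6 CPM with EPZ011989, against 6.07, 6.35 and 7.08 CPM in vehicle, at day 6 (0.99 ± 0.14 log2, edgeR adjusted p = 9.32e-05). Its day 12 values were 12.0, 16.4 and 15.2 CPM with EPZ011989, against 10.0, 9.25 and 9.85 CPM in vehicle (0.58 ± 0.14 log2, edgeR adjusted p = 0.00192), again with no overlap.

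GBX2, a factor of the anterior hindbrain (chromosome 2, 236165236 to 236168369), had 54.9, 50.9 and 54.0 CPM with EPZ011989 at day 12, against 4.82, 5.21 and 9.08 CPM in vehicle. At day 6 it had 11.3, 12.5 and 11.8 CPM with EPZ011989, against 6.96, 8.31 and 6.60 CPM in vehicle. The groups were separate at both days, with a rise of 0.70 ± 0.18 log2 at day 6 (edgeR adjusted p = 0.00661) and of 3.07 ± 0.18 at day 12 (1.05e-09). The rise was larger at day 12 by 2.37 ± 0.25 log2 (edgeR adjusted p = 2.55e-06). EMX2, of cortex and inner ear, rose alike at both days: 11.8, 11.3 and 11.4 CPM with EPZ011989, against 1.44, 2.5 and 2.38 CPM in vehicle, at day 6. By day 12 it had 13.6, 11.4 and 12.1 CPM with EPZ011989, against 1.16, 2.30 and 2.58 CPM in vehicle, which gives 2.45 ± 0.25 and 2.61 ± 0.25 log2 (edgeR adjusted p = 3.13e-06 and 3.18e-07). Its paralogue EMX1 did not pass (0.52 ± 0.19 and 0.03 ± 0.20 log2, edgeR adjusted p = 0.0514 and 0.903), although at day 6 it passed in 12 other fits, among them that without replicate 1 of vehicle at day 12. EN2, of midbrain and cerebellum, rose by 0.57 ± 0.14 and 1.12 ± 0.14 log2 (edgeR adjusted p = 0.00713 and 7.28e-06).

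TLX3, the most abundant of the class in vehicle, did not pass at either day. It had 26.1, 27.2 and 26.5 CPM with EPZ011989 at day 6, against 30.9, 36.8 and 31.9 CPM in vehicle (-0.32 ± 0.14 log2, edgeR adjusted p = 0.0964). At day 12 it had 24.4, 29.4 and 29.2 CPM with EPZ011989, against 17.3, 24.8 and 28.7 CPM in vehicle (0.23 ± 0.14 log2, edgeR adjusted p = 0.169). The groups were apart at day 6 and overlapped at day 12. The day 6 value passed without replicate 1 of vehicle at day 12 (edgeR adjusted p = 0.0158) and the day 12 value without replicate 3 of that group (0.0191). Of the 6 untested ANTP genes, TLX1 had reads in all 3 EPZ011989 libraries and 2 of 3 vehicle libraries at day 12 and in none at day 6.

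In the NKX class 4 genes were tested, of which NKX2-2 entered through its treated libraries. Of the other 3, 1 rose at each day and 1 fell at day 12. Of all genes 17.1% rose at day 6, and 33.7% rose and 33.3% fell at day 12. NKX2-2, a factor of the ventral neural tube and of pancreatic and gut endocrine cells (chromosome 20, 21511010 to 21514026), had 3.33, 2.88 and 2.37 CPM with EPZ011989 at day 6, against 0.331, 0.163 and 0.317 CPM in vehicle. By day 12 the values were 6.34, 9.24 and 6.29 CPM with EPZ011989, against 0.129, 0.112 and 0.258 CPM in vehicle. The groups were far apart at both days, on 154 reads with EPZ011989 against 15 in vehicle at day 6 and on 420 against 8 in vehicle at day 12. The changes were 3.37 ± 0.36 and 5.42 ± 0.39 log2 (95% interval at day 12 4.65 to 6.18, edgeR adjusted p = 5.92e-06 and 1.44e-08), and their difference 2.04 ± 0.58 (edgeR adjusted p = 0.00982). NKX2-1, the lung and thyroid factor, had 10.4, 8.33 and 10.6 CPM with EPZ011989, against 6.79, 5.54 and 4.22 CPM in vehicle, at day 6. The day 12 libraries had 16.5, 13.9 and 17.4 CPM with EPZ011989, against 4.76, 3.19 and 5.54 CPM in vehicle. It rose without overlap by 0.82 ± 0.21 and 1.83 ± 0.21 log2 (edgeR adjusted p = 0.00671 and 2.42e-06).

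NKX2-5, a heart factor and the most abundant NKX gene in vehicle, fell at day 12. It had 6.29, 6.88 and 7.30 CPM with EPZ011989, against 11, 11.4 and 12.4 CPM in vehicle (-0.76 ± 0.13 log2, edgeR adjusted p = 0.000136). At day 6 its groups overlapped, at 9.78 ± 0.341 CPM with EPZ011989 and 10.6 ± 1.52 CPM in vehicle (SD, n = 3 each, edgeR adjusted p = 0.523). NKX6-1, a beta cell and motor neuron factor, was at -0.99 ± 0.39 log2 at day 6 and 0.64 ± 0.38 at day 12 and passed at neither (edgeR adjusted p = 0.0661 and 0.155). At day 6 it passed without replicate 1 of vehicle at day 12 (0.0319) and with the libraries of day 6 alone (0.0477). The summed level of the class was 30.6 ± 0.862 TPM with EPZ011989, against 21.1 ± 2.74 TPM in vehicle, at day 12.

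LIM genes went in both directions, 2 up and 1 down at day 6 and 2 up and 2 down at day 12 among 6 tested. At day 6, 17.1% of all genes rose and 17.1% fell. The day 12 counts are near the 33.7% and 33.3% of all genes called up and down. Their summed level at day 12 was 33.2 ± 2.93 TPM with EPZ011989, against 35.2 ± 0.955 TPM in vehicle. LHX2 (chromosome 9, 124001670 to 124033301) had 29.1, 27.4 and 26.9 CPM with EPZ011989 at day 6, against 24.2, 24.9 and 26.4 CPM in vehicle (0.14 ± 0.08 log2, edgeR adjusted p = 0.173). After 12 days it had 10.4, 11.3 and 9.94 CPM with EPZ011989, against 25.3, 24.5 and 26.1 CPM in vehicle (-1.26 ± 0.08 log2, edgeR adjusted p = 4.68e-09). The treated libraries were just above vehicle at day 6 and far below it at day 12. The difference of -1.41 ± 0.11 log2 had the smallest p of the 37 genes in the test between days (edgeR adjusted p = 1.84e-07).

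LMX1B, a factor of dorsal limb and serotonin neurons, had 8.27, 5.26 and 7.67 CPM with EPZ011989, against 3.64, 3.69 and 3.85 CPM in vehicle, at day 6. Its day 12 values were 11, 14.1 and 10.4 CPM with EPZ011989, against 1.80, 2.69 and 2.45 CPM in vehicle. It rose without overlap by 0.92 ± 0.21 and 2.35 ± 0.22 log2 (edgeR adjusted p = 0.00323 and 2.29e-07). LHX9, needed for gonad formation in mice, had 24.0, 23.6 and 22.4 CPM with EPZ011989 at day 6, against 11.3, 8.47 and 9.08 CPM in vehicle. It was also higher in every treated library at day 12, with changes of 1.28 ± 0.12 and 1.00 ± 0.12 log2 (edgeR adjusted p = 1.45e-06 and 3.98e-06).

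ISL2, a motor neuron factor, had 3.77, 3.08 and 4.27 CPM with EPZ011989 at day 6, against 7.4, 8.90 and 7.39 CPM in vehicle, a change without overlap of -1.09 ± 0.18 log2 (edgeR adjusted p = 0.000333). By day 12 it had 4.76, 5.38 and 5.62 CPM with EPZ011989, against 4.63, 5.27 and 5.73 CPM in vehicle, and the groups overlapped fully. ISL2 also fell with time in vehicle, and its treated level at day 6 was below its level in either vehicle group. LHX4, a pituitary factor, had 17.1, 16.8 and 15.3 CPM with EPZ011989 at day 12, against 21.6, 19.3 and 22.2 CPM in vehicle (-0.35 ± 0.09 log2, edgeR adjusted p = 0.00264). Its exons overlap those of ACBD6 on the opposite strand, which fell by 0.39 ± 0.06 log2 at day 12 (edgeR adjusted p = 4.64e-05). No source used here gives the strand setting of the counting, so reads from the shared stretch may not be told apart. Among other tested members, exons of LHX2, ISL2, NKX2-1, NKX2-2, EMX1, EMX2, TLX3, GBX2, IRX3, PITX1, MEIS1 and MEIS2 overlap annotated antisense genes. Those antisense genes were not tested, and reads from the shared stretches may not be told apart either. The length of the overlaps was not measured.

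Both POU genes, neural factors, rose at both days, where 17.1% of all genes rose at day 6 and 33.7% at day 12. POU3F3 (chromosome 2, 104855511 to 104858574) had 4.80, 4.29 and 5.54 CPM with EPZ011989 at day 6, against 0.718, 0.706 and 1.00 CPM in vehicle. At day 12 it had 11.4, 11 and 14.3 CPM with EPZ011989, against 0.193, 0.448 and 0.644 CPM in vehicle. The separation was wide at both days, with rises of 2.58 ± 0.28 and 4.81 ± 0.31 log2 (edgeR adjusted p = 7.39e-06 and 4.36e-09), and wider at day 12 by 2.23 ± 0.43 (edgeR adjusted p = 0.000681). POU3F2, also called BRN2, already had 20.6 ± 1.12 and 20.5 ± 0.332 CPM in vehicle at days 6 and 12. It rose by 0.73 ± 0.08 log2 at day 6 and by 0.28 ± 0.08 at day 12 (edgeR adjusted p = 5.29e-06 and 0.00566), a smaller rise at day 12 by the test of the difference (-0.45 ± 0.11, edgeR adjusted p = 0.00375). In TPM the pair summed to 13.7 ± 0.732 with EPZ011989, against 7.26 ± 0.0835 in vehicle, at day 12.

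Of the 3 tested PRD genes PITX1 alone was called, upward at both days. Of all genes 17.1% rose at day 6 and 33.7% at day 12. SHOX2 had 102, 103 and 98.1 CPM with EPZ011989 at day 6, against 99.1, 99.2 and 101 CPM in vehicle, and 109, 110 and 114 CPM with EPZ011989, against 110, 105 and 106 CPM in vehicle, at day 12. The libraries overlapped at both days, and the 95% intervals of the log2 change, -0.06 to 0.11 and -0.03 to 0.13, bound it closely. With library totals in place of TMM SHOX2 passed at day 12, at 0.12 log2 (edgeR adjusted p = 0.0221). Its exons overlap those of RSRC1 on the opposite strand, which fell by 0.51 ± 0.08 log2 at day 12 (edgeR adjusted p = 4.49e-05). Reads from the stretch shared by this pair, too, may not be told apart. PITX1 had 58.9, 60.5 and 67.2 CPM with EPZ011989 at day 6, against 39.7, 38.8 and 40.2 CPM in vehicle, a rise without overlap of 0.65 ± 0.08 log2 (edgeR adjusted p = 2.92e-05). By day 12 the values were 45.5, 50.1 and 49.2 CPM with EPZ011989, against 30.6, 35.7 and 38.6 CPM in vehicle (0.47 ± 0.08 log2, edgeR adjusted p = 0.000193). The day 12 call of PITX1 was lost with transcript lengths as an offset and with limma on the authors' table at either pseudocount, with a log2 change of 0.13 in all 3 fits (adjusted p of 0.182 to 0.193). Its difference between the days, -0.19 ± 0.12 and not called (edgeR adjusted p = 0.211), passed in the same 3 fits at -0.68 to -0.65 (adjusted p of 0.000578 to 0.000597) and without replicate 1 of vehicle at day 12 at -0.28 (edgeR adjusted p = 0.0374). Its main transcript took 82.1% of its TPM with EPZ011989 at day 12, against 58.0% in vehicle. OTX1, a forebrain factor, did not pass at either day.

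ONECUT2, a factor of liver and neuroendocrine cells (chromosome 18, 57435685 to 57491297), had 141, 150 and 145 CPM with EPZ011989 at day 6, against 92.7, 94.3 and 94.9 CPM in vehicle. The day 12 libraries had 204, 204 and 192 CPM with EPZ011989, against 126, 118 and 127 CPM in vehicle. It rose without overlap and alike at both days, by 0.63 ± 0.05 and 0.70 ± 0.05 log2 (edgeR adjusted p = 9.8e-08 and 4.24e-09), with a difference of 0.06 ± 0.06 (95% interval -0.06 to 0.19). ONECUT1, its liver and pancreas paralogue, was called at day 6 alone (0.29 ± 0.10 log2, edgeR adjusted p = 0.03) and lost that call in 4 fits without 1 library and in 3 other settings (p of 0.0508 to 0.187).

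Of the MEIS pair, MEIS1 had 14.2, 15.8 and 12.9 CPM with EPZ011989 at day 6, against 7.84, 7.38 and 7.02 CPM in vehicle. After 12 days it had 22.8, 19.5 and 20.3 CPM with EPZ011989, against 10.5, 7.45 and 10.6 CPM in vehicle. MEIS1 rose at both days without overlap, by 0.95 ± 0.14 and 1.14 ± 0.14 log2 (edgeR adjusted p = 0.000125 and 3.88e-06). The more abundant MEIS2 had 33.8, 37.6 and 30.9 CPM with EPZ011989 at day 6, against 28.0, 30.5 and 31.5 CPM in vehicle, and 31.4, 25.9 and 28.1 CPM with EPZ011989, against 34.0, 30.0 and 30.2 CPM in vehicle, at day 12. Its groups overlapped at both days (0.18 ± 0.09 and -0.14 ± 0.10 log2, edgeR adjusted p = 0.154 and 0.20).

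Culture time by itself, day 12 against day 6 in vehicle, moved few of these genes, a share near that of all genes. Of the 37, 2 rose and 4 fell, where 13.2% of all genes were called, 6.0% upward and 7.15% downward. No member passed with a 2-fold change, which 0.24% of all genes did upward and 0.326% downward. ONECUT2 rose by 0.40 ± 0.05 log2 (edgeR adjusted p = 0.000891) and BARHL2 by 0.58 ± 0.14 (0.0235). DLX3 fell by 0.91 ± 0.14 (edgeR adjusted p = 0.00499), ISL2 by 0.60 ± 0.18 (0.0414), TLX3 by 0.49 ± 0.14 (0.0385) and DLX4 by 0.39 ± 0.11 (0.0402). Of these 6 only the ONECUT2 call held in all settings, and without replicate 1 of vehicle at day 12 only 2 of the 37 were called, ONECUT2 up and DLX3 down.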

How the data were processed

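PolyA-captured RNA of 12 MKL-1 libraries was sequenced. The authors deposited, per library, expected counts (estimated reads) and TPM per transcript, which Salmon 1.2.0 estimated on build hg38 (FastQC and DESeq2 are the other tools listed), per the submitters' processing notes. They also deposited a gene table of normalized signal, whose normalization no source used here states and which supplied the rows and 1 alternative. Of 179883 transcripts 168219 (93.52%) were matched by identifier to a GENCODE v29 gene (GRCh38), and the rest, with 3.08 to 3.58% of a library's reads, were left out. Reads and TPM were then summed over a gene's transcripts, and the read sums rounded to whole numbers. For all 37 tested homeobox genes the sum lay between 0.8 and 1.25 times the authors' level.

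Groups were compared by two-sided quasi-likelihood tests in edgeR 4.0.16 under R 4.3.3, with filterByExpr and TMM, in a single fit of the 4 groups to 15016 genes, Benjamini-Hochberg adjusted over all of them at 0.05. The common biological coefficient of variation was 10.1%. A standard error is the log2 fold change over the square root of F. CPM for display used TMM-scaled libraries, and 3 reads, the floor, were 0.147 to 0.193 CPM, which covers counting error only. Within a gene CPM was compared, between genes TPM.

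Alternatives were DESeq2 1.42.0 size factors and test, library totals, other low-count filters, a transcript length offset, limma 3.58.1 on log2 of the authors' table plus 1 or 5, the libraries of a contrast alone, a replicate block, and leaving out each library. The homeobox genes, classes and lists were chosen with earlier results of these data known. Named with values per library are the 6 highest in vehicle, per treatment contrast up to 10 rises and 10 falls at 1 CPM or more in the higher group, and the 5 smallest p in the other contrasts. Values of other genes were given to account for the whole set.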

Additional observations from a re-analysis of the deposited data

Results flagged for a closer look

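The effect of EPZ011989 differed between day 12 and day 6, by the edgeR test of the difference itself over all 12 libraries, for 19 of the 37 tested homeobox genes, against 47.7% of all genes. A positive value means a more positive log2 effect at day 12. The 10 positive differences were 2.37 for GBX2, 2.23 for POU3F3, 2.04 for NKX2-2, 1.63 for NKX6-1, 1.42 for LMX1B, 1.10 for ISL2, 1.01 for NKX2-1, 0.58 for IRX2, 0.55 for EN2 and 0.55 for TLX3. The 9 negative differences were -2.64 for IRX6, -1.41 for LHX2, -1.02 for DLX3, -0.90 for IRX5, -0.69 for IRX3, -0.65 for NKX2-5, -0.62 for DLX6, -0.45 for POU3F2 and -0.34 for LHX4. For NKX6-1 and TLX3 neither single day passed its own test, and for IRX2 the sign of the effect changed between the days. The calls of NKX6-1, TLX3, EN2, IRX6, DLX6 and LHX4 were lost in some settings, and the other 13 held in all. Without replicate 1 of vehicle at day 12, EN2 was at 0.47 and LHX4 at -0.32, and neither passed (edgeR adjusted p = 0.0821 and 0.0625).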

How the results depend on the processing

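No treatment effect, difference or time effect of a homeobox gene changed its sign while called under any of the alternatives. At day 6, 18 of 21 rises and 1 of 4 falls (ISL2) passed in every setting that tested the gene, and at day 12 19 of 20 rises (the exception being PITX1) and 6 of 6 falls. Of the differences between days 7 of 10 positive and 6 of 9 negative ones did, and of the time effects in vehicle 1 of 6. The 18 and the 7 include NKX2-2, and the 19 include BARHL1, DLX2 and NKX2-2. These genes entered the test through their treated libraries, so a rise was built into their inclusion.

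Counts moved by over 1.5 times in few settings. With transcript lengths as an offset 3241 genes, not 5142, were called at day 6. The time contrast in vehicle was the least stable: in place of 1975 genes and 6 members it gave 89 genes and 1 member with the length offset, 16 genes and 1 member with the libraries of the contrast alone, and 153 genes with 2 members and 160 genes with 2 members by limma on the authors' table at pseudocounts of 1 and 5. Without 1 library in turn it gave 183 to 4184 genes and 2 to 10 members. Leaving out 1 library gave 3890 to 5773 genes and 22 to 29 members at day 6, 9464 to 10086 genes and 26 to 27 members at day 12, and 6554 to 7594 genes and 14 to 19 members for the difference. The low count of members without replicate 1 of vehicle at day 12, 2 of 37 in the time contrast, came with 534 genes called.

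The replicate numbers did not pair the libraries: same-numbered libraries correlated at -0.088 to 0.105 in their deviations from the group means. With the replicate block 25 members were called at day 6, 26 at day 12, 17 for the difference and 6 for time, and 5177, 10050, 7163 and 2368 genes. The difference between days draws on all 4 groups, so a fit of its own libraries alone would repeat the main fit and was not run. Depth limits the 19 untested genes and BARHL1, DLX1, DLX2, IRX6 and NKX2-2, which rest on few reads in at least 1 group.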

Other observations

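Of 94 further homeobox transcription factor genes outside the set, 52 were tested, 7 of them only through treated libraries. Of the other 45, 12 rose and 5 fell at day 6 and 19 rose and 10 fell at day 12, with median log2 changes of 0.23 and 0.14. Of all genes 17.1% rose and 17.1% fell at day 6, and 33.7% and 33.3% at day 12. The largest changes at day 12 among those at 1 CPM or more in the higher group were rises from near 0, and MEIS3, TLX2 and PROX2 are among the 7 that entered through treated libraries. MEIS3, a relative of MEIS1, had 1.82 ± 0.478 CPM with EPZ011989 and 0.0588 ± 0.0562 CPM in vehicle (4.75 ± 0.72 log2, edgeR adjusted p = 3.96e-05). TLX2, a paralogue of TLX3 known from enteric neurons in mice, had 2.25 ± 0.201 CPM with EPZ011989 and 0.0802 ± 0.07 CPM in vehicle (4.67 ± 0.71 log2, edgeR adjusted p = 4.1e-05; SD, n = 3 each). PROX2 rose by 4.61 ± 0.89 log2 and ZFHX4 by 3.89 ± 1.03 (edgeR adjusted p = 0.000357 and 0.004), though the summed reads of ZFHX4 cover only 0.0816 of the authors' level.

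Of 18 genes for homeodomain cofactors 17 were tested, of which 4 rose and 3 fell at day 6 and 10 rose and 4 fell at day 12 (medians 0.08 and 0.57 log2). That is 41.2% and 82.4% called, against 34.2% and 66.9% of all genes. LMO2, a LIM-only protein that shares the LIM partner LDB1 with LIM homeodomain factors, had 33.0 ± 0.808 CPM with EPZ011989 at day 12 and 6.88 ± 0.69 CPM in vehicle (2.26 ± 0.10 log2, edgeR adjusted p = 1.01e-10). LMO1, of the same family, moved the other way and had 7.43 ± 0.626 CPM with EPZ011989 and 24.0 ± 6.22 CPM in vehicle (-1.69 ± 0.16 log2, edgeR adjusted p = 2.69e-07). CITED2, a partner of the coactivators CBP and p300, and the Groucho corepressor gene TLE2 rose by 2.26 ± 0.08 and 1.58 ± 0.09 log2 (edgeR adjusted p = 9.82e-12 and 1.11e-09).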
